A study of Mus musculus with 9 samples.

Results

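The genes described here are 37 myeloid and granulocyte genes, listed by symbol as 16 macrophage and monocyte genes, 3 myeloid transcription factor genes, 11 neutrophil genes, 4 dendritic cell genes and 3 mast cell and basophil genes. They were looked up by symbol in a table of raw read counts of 23466 genes, which gave 35 of them, while Fcgr1 and Ly6g were not analysed here. RNA was sequenced from ILC2s (innate lymphoid cells of group 2, resident in tissues and a source of type 2 cytokines), sorted as live CD45+ cells that lacked lineage markers and carried St2 and Thy1. The 9 libraries came from wild type C57/Bl6 mice aged 10 weeks and formed 3 groups of 3. The brain meninges were sampled from uninjured mice and from mice whose spinal cord had been contused at 80 kdyn 24 h before, and the lung from uninjured mice. No group was labelled as sham-operated. Per the labels 5 mice were pooled in each group, and whether each library had its own pool is not given. The p-values therefore reflect variation among libraries that may be technical replicates. Extraction was with the PicoPure kit, and amplification used the Ovation RNA-Seq V2 kit.

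Macrophages, monocytes, neutrophils, dendritic cells, mast cells and basophils are myeloid cells, a branch of blood formation separate from the lymphoid branch that gives ILC2s. The transcription factor PU.1, encoded by Spi1, together with C/EBP factors, switches on most myeloid genes. A neutrophil fills its granules in a fixed order as it matures in bone marrow: azurophil granule proteins such as myeloperoxidase are made first, specific granule proteins such as lactoferrin next, and the chemokine receptor that lets the cell leave the marrow last. A sort on CD45, St2 and Thy1 without lineage markers is meant to leave such cells out, although mast cells and basophils can carry St2 as well. In bulk RNA, fewer cells of a type and less RNA per cell cannot be told apart.

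Levels are CPM, counts scaled to a common library size with edgeR's TMM factors. Library totals ran from 13407277 to 18253462 counts, and a library with no count of a gene could still hold up to 3 counts, or 0.163 to 0.239 CPM. Such limits reflect counting error alone, since reads of amplified cDNA are not separate molecules. The gate gene Il1rl1, which encodes St2, had at least 1852 CPM in every library and Ptprc, which encodes CD45, at least 1301 CPM. Thy1 fell after injury (log2 fold change -1.73 ± 0.29, SE, edgeR adjusted p = 0.0218). Injured meninges 2 stood apart from the rest of its group, with Spearman correlations across genes of 0.795 and 0.799 to the other injured libraries and the fewest genes with a count, 13465.

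The promoters of 4 neutrophil genes are shown because these genes had most of their counts in 1 library, and the same library held most of the counts of Spi1. The sequences are the 250 bases before the start site from RefSeq, on build GRCm38.p6 and on the gene's own strand. Capitals mark the PU.1 core GAGGAA or the C/EBP motif TTGCNNAA, each searched on both strands.
Mpo, chr11:87793534-87793783, plus strand: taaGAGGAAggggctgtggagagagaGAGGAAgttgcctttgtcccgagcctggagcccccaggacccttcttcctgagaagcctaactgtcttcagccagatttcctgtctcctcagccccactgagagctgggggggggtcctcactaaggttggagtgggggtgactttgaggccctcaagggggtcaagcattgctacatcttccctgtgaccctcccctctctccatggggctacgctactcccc
Elane, chr10:79886062-79886311, plus strand: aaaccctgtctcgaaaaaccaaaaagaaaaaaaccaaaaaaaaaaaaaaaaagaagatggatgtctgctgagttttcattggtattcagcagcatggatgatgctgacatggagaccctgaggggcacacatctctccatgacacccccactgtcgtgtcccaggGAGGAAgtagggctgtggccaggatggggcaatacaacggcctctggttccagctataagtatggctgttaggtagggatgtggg
Csf3r, chr4:126024409-126024658, plus strand: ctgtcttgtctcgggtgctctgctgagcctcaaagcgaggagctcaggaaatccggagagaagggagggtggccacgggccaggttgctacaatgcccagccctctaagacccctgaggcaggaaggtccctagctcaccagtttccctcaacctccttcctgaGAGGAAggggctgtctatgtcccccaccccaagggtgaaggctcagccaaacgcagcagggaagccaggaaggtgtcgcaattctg
S100a9, chr3:90695722-90695971, minus strand: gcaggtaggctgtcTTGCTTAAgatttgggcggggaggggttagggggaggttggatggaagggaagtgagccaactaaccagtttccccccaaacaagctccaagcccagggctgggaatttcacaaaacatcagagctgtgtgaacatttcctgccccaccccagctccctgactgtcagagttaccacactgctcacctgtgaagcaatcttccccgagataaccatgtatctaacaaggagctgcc

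Counted from the start site, GAGGAA begins at bases -247 and -224 of the Mpo promoter, at -85 of Elane and at -86 of Csf3r, and the C/EBP match begins at -236 of S100a9. Of the 37 listed genes 31 had at least 1 RefSeq entry, 33 in all, and 19 of these entries held GAGGAA. Fcgr3 and Ly6g had more than 1 entry, with overlapping windows, so sites in the shared bases were counted more than once. Over all 32851 promoter windows of that length, 23.3% held it. TTGCNNAA was found in 9 of the 33 entries against 9.56% of all windows, and both motifs in 6 against 2.07%. Matches of the 2 motifs were counted separately even where they overlap, and a match describes these letters without showing a bound site.

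In these sorted ILC2s the myeloid genes were unevenly spread over the libraries. Their median level, 3.73 CPM or 1.47 CPM per kb of exon, was close to that of all genes in the table, 2.96 CPM and 1.47 CPM per kb. Of the 35 genes, 11 had a count in all 9 libraries: Lyz2, Cd68, Csf1r, Itgam, Tyrobp, Ctss, Mrc1, Cebpb, Xcr1, Zbtb46 and Cpa3. This is 31.4% of the genes, against 46.3% of all genes in the table. The other 24 were at 0 in at least 1 library. The number at 0 was 3, 15 and 12 in uninjured meninges, 4, 18 and 12 in injured meninges and 8, 14 and 7 in lung (libraries 1, 2 and 3 of each group, the order used throughout). Meningeal libraries numbered 1 had the fewest genes at 0, and injured meninges 2 had the most.

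A single library held at least 50% of the CPM summed over the 9 libraries for 14 of the 35 genes, or 40%, against 35.5% of all genes in the table. The share in the top library was 95.9% for Elane, 83.9% for Mpo, 63.5% for Spi1, 61.1% for Csf3r and 53.8% for S100a9. That library was uninjured meninges 3 for all 5. Injured meninges 1 was the top library of Ngp with 75.6% and of Ltf with 54.4%. Genes that passed the filter on low counts were less even than other genes that passed it, with 8 of 28 (28.6%) at 50% or more in 1 library against 10.2% of 15117. Their median biological coefficient of variation was 1.47, against 0.80 for all genes tested. The listed genes tested were also scarcer, with a median of 4.85 CPM against 11.99 CPM for all genes tested. Of these listed genes 39.3% had a count in all 9 libraries, against 71.1% of all genes tested. Genes of matched level were not compared, so whether the listed genes are less even than equally scarce genes was not tested.

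**Figure D1:**
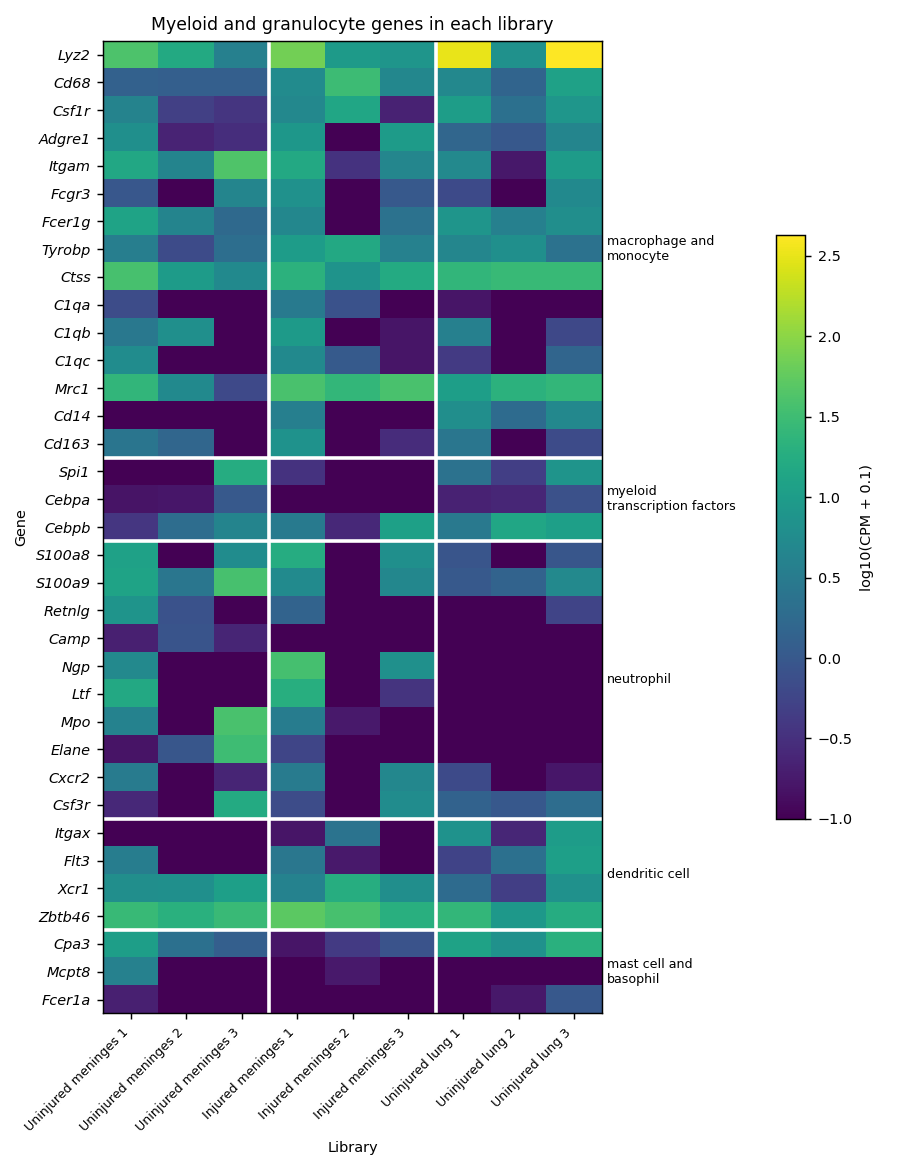
Level of the 35 myeloid and granulocyte genes in each library, as log10(CPM + 0.1) on the colour scale, with genes as rows by class and the 9 libraries as columns by group (white lines separate classes and groups). Lyz2 is brightest in lung 1 and 3 (326 and 425 CPM), Mpo and Elane stand out in uninjured meninges 3, and the neutrophil genes are dark throughout injured meninges 2.

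The first comparison set meninges 1 day after injury against uninjured meninges. Cd68, Tyrobp and Mrc1 were higher in each injured library than in any uninjured one, and Cpa3 was lower in each injured library, but none of these differences passed the test. Neutrophil genes lay on both sides of 0, with Ngp at 3.08 ± 2.24 and Mpo at -3.65 ± 2.22 (log2 fold change, SE). No gene of the 28 tested was called by edgeR at an adjusted p under 0.05, in a comparison in which 0.192% of 15117 genes were called (0.132% higher and 0.0595% lower), and 5 had an unadjusted p under 0.05, a level that 8.94% of all tested genes reached. DESeq2 called 2, Cd68 and Cpa3, against 2.86% of all genes to which it gave an adjusted p. The log2 fold change was above 0 for 18 and below 0 for 10 of the 28, with a median of 0.46 (all tested genes -0.0047), where 49.4% of all genes were above 0. Without injured meninges 1 that median was -1.10. The groups did not overlap for 4 of 28 genes (14.3%), 3 higher and 1 lower, against 12.1% of all tested genes (5.35% higher and 6.79% lower). A filter on low counts keeps a gene that is high in 1 group, so none of these counts stands for all 37 genes.

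The second comparison set meninges against lung of uninjured mice, and it used the same uninjured meningeal libraries as the first. Cd68, Cd14 and Itgax were lower in each meningeal library than in any lung library. For Cd68 the closest libraries were uninjured meninges 1 and lung 2, with 1.25 and 1.40 CPM. For Itgax lung 2 had 0.147 CPM, under the 0.221 CPM of 3 counts, so it cannot be told apart from 0. The 7 tested neutrophil genes all had higher fitted levels in meninges, with a median log2 fold change of 3.42, or 3.05 with Mpo and Ngp, which were at 0 in lung, set at the smallest fold that 3 counts allow. That second median is the bound of Ngp itself, which rests on uninjured meninges 1. Without uninjured meninges 1, 5 of the 7 were above 0, Cxcr2 was below and Ngp was at 0, and without uninjured meninges 3, 6 were above 0 and Csf3r below. Mpo and Ngp, with no count in lung, passed the filter on low counts through meningeal libraries alone. Retnlg and Cxcr2 did so too, with at most 0.448 and 0.553 CPM in any lung library. Genes kept in this way lean towards meninges, so the 7 do not stand for neutrophil genes in general. Cd14 and Itgax, with no count in uninjured meninges, passed the filter through lung and injured meningeal libraries, and such genes lean towards lung. In a further list of neutrophil genes 3 of the 5 tested were above 0 and 2 below. None of the 28 genes was called by edgeR, while 0.635% of all tested genes were (0.0397% higher and 0.595% lower in meninges). An unadjusted p under 0.05 was reached by 4 of them (7.98% of all genes). DESeq2 called 2, Itgax and Cd14, where 3.53% of genes were called. In this comparison 15 log2 fold changes were above 0 and 13 below, with a median of 0.22 (all tested genes 0.0019), where 50.1% of all genes were above 0. The groups did not overlap for 3 of 28 genes (10.7%), all lower in meninges, against 18.2% of all genes in either direction (7.63% higher and 10.6% lower). Without uninjured meninges 1 the median was -0.98. Injured meninges were not tested against lung.

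The standard errors show what these libraries could resolve. The median standard error of the log2 fold change was 1.89 over the 28 genes in the injury comparison and 1.98 in the tissue comparison, against 0.95 and 0.96 over all tested genes. Zbtb46 had the smallest, 0.57 in both. Mpo had 2.22 and 3.23. A difference in these genes that is smaller than several of these errors was not detectable with 3 libraries a group.

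**Figure D2:**
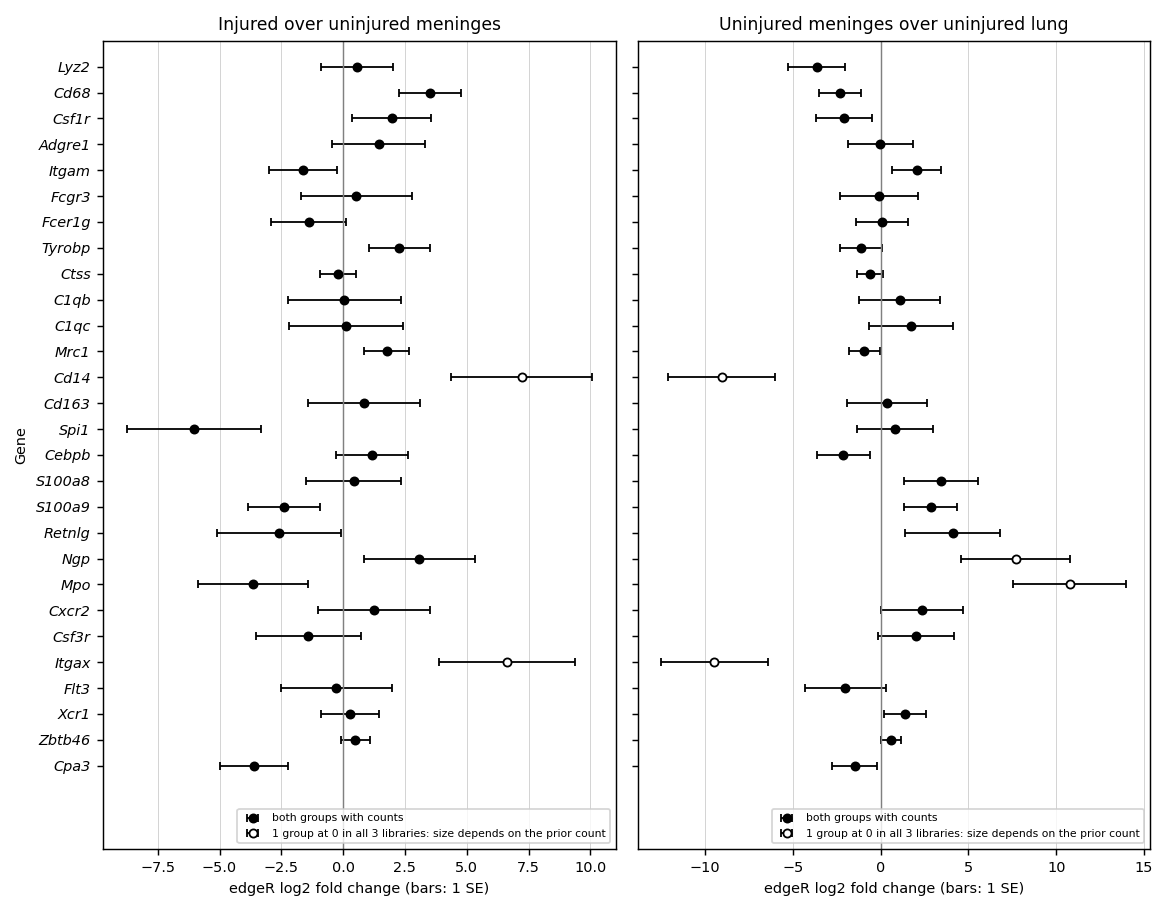
edgeR log2 fold change of each of the 28 tested genes, injured over uninjured meninges on the left and uninjured meninges over uninjured lung on the right, with bars of 1 SE over 3 libraries a group. Open points are genes at 0 in all 3 libraries of 1 group, whose size depends on the prior count. Zbtb46 and Ctss have the shortest bars, and Cd14 and Itgax lie far from 0 in opposite directions in the 2 panels.

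Macrophage and monocyte genes took the largest share of the reads of the 5 classes in every library but uninjured meninges 3. Their summed level was 158, 49.2 and 61.1 CPM in uninjured meninges, 215, 103 and 89.8 after injury and 408, 72.4 and 532 in lung. Meningeal libraries overlapped, and lung 1 and 3 lay above every other library while lung 2 did not. Without Lyz2 the sums were 117, 33.4 and 57.4, then 143, 93.2 and 82.1, then 82.7, 65.6 and 107 CPM, and the 3 groups overlapped. In the injury comparison 11 of the 14 tested genes of this class had a log2 fold change above 0, with a median of 0.69. Without injured meninges 1, 5 were above 0, 8 below and Cd14 at 0, with a median of -0.90. In the tissue comparison 5 of 14 were above 0, with a median of -0.36.

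Cd68 encodes a lysosomal membrane glycoprotein of macrophages. It had 1.25, 1.16 and 1.14 CPM in uninjured meninges, 5.56, 30.4 and 4.70 after injury and 4.85, 1.40 and 11.7 in lung. The uninjured meningeal libraries were close to each other and below all 6 others. The log2 fold change after injury was 3.51 ± 1.26 (SE, edgeR adjusted p = 0.465) and dropped to 2.11 without injured meninges 2. DESeq2 gave 3.56 with an adjusted p of 0.0170, and over all alternatives the adjusted p ran from 0.0170 to 0.714. Against lung the log2 fold change was -2.33 ± 1.20 (edgeR adjusted p = 0.683).

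Mrc1, the mannose receptor of tissue macrophages, had 24.3, 5.10 and 0.537 CPM in uninjured meninges, 38.1, 24.8 and 39.2 after injury and 10.8, 21.4 and 24.8 in lung. All injured libraries lay above the uninjured ones, narrowly at the closest, with 24.8 against 24.3 CPM. The log2 fold change after injury was 1.77 ± 0.92 (edgeR adjusted p = 0.601) and reached 3.59 without uninjured meninges 1. Tyrobp, an adaptor that carries an ITAM signalling motif for receptors of myeloid and natural killer cells, had 3.48, 0.581 and 1.95 CPM in uninjured meninges, 10.2, 15.2 and 3.82 after injury and 4.49, 6.41 and 2.24 in lung. Its lowest injured library was just above its highest uninjured one, and its log2 fold change was 2.27 ± 1.25 (edgeR adjusted p = 0.635). Fcer1g, the other ITAM adaptor of the list, had 12.5, 4.26 and 1.61 CPM in uninjured meninges, 4.72, 0 and 2.26 after injury and 7.62, 3.68 and 6.09 in lung, with overlapping groups.

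Lyz2, which encodes lysozyme of macrophages and neutrophils, was the most abundant of the listed genes per length. It had 41.1, 15.8 and 3.69 CPM in uninjured meninges, 71.8, 9.47 and 7.71 after injury and 326, 6.78 and 425 in lung. The lung libraries spanned more than the other 6 together, with lung 2 lower than 5 of the 6 meningeal libraries. Meninges against lung gave a log2 fold change of -3.64 ± 1.61 (edgeR adjusted p = 0.639). Its near copy Lyz1 was at 0 in all meningeal libraries and had 21.1, 0 and 11.7 CPM in lung, and reads could be split between the 2 genes. Ctss, which encodes the antigen-processing protease cathepsin S, was more even, with 37.5, 9.68 and 5.24 CPM in uninjured meninges, 21.2, 7.16 and 16.6 after injury and 24.7, 27.9 and 27.5 in lung.

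Receptors of mononuclear phagocytes were spread over several libraries of all 3 groups. Csf1r, the receptor for macrophage colony-stimulating factor, had 4.14, 0.387 and 0.269 CPM in uninjured meninges, 4.90, 13.8 and 0.125 after injury and 10.4, 2.06 and 8.01 in lung. Its highest library was injured meninges 2, which also held the highest Cd68 and Tyrobp. Adgre1, which encodes F4/80, had 6.26, 0.129 and 0.202 CPM in uninjured meninges, 8.18, 0 and 9.65 after injury and 1.47, 0.884 and 4.36 in lung. Injured meninges 2 thus held the highest Csf1r and no Adgre1 count. Reads of Csf1r and of the overlapping gene Hmgxb3 on the other strand cannot be told apart without a stated strand setting.

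Cd14, a co-receptor for bacterial lipopolysaccharide, was read in no uninjured meningeal library and had 3.58, 0 and 0 CPM in injured meninges and 6.14, 1.77 and 4.87 in lung. Lung was at least 22.9-fold higher than uninjured meninges, and at least 17.8-fold without lung 1, taking 3 counts per library as the limit for 0. Cd14 passed the filter on low counts through the lung libraries, in which it was high. The edgeR adjusted p of that comparison was 0.324 and the DESeq2 one 0.0391, with a range of 0.0391 to 0.688 over the alternatives. Injured meninges 1 alone carried the reads of its group. Itgam, the integrin chain CD11b shared by macrophages and neutrophils, had 15.0, 4.26 and 42.0 CPM in uninjured meninges, 15.2, 0.239 and 4.51 after injury and 4.98, 0.0736 and 9.61 in lung. Its highest level was in uninjured meninges 3.

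Complement C1q genes, which tissue macrophages express together as the chains of 1 protein, did not keep a fixed ratio here. C1qb had 2.72, 6.39 and 0 CPM in uninjured meninges, 9.38, 0 and 0.0627 after injury and 3.75, 0 and 0.512 in lung. C1qc had 5.77, 0 and 0 CPM, then 5.20, 0.955 and 0.0627, then 0.307, 0 and 1.41 in the same order. Uninjured meninges 2 therefore had C1qb reads without any of C1qa or C1qc, and injured meninges 2 had C1qa and C1qc reads without C1qb. C1qa, with 70 counts in all, was not tested. The remaining members were Fcgr3, a low-affinity Fc receptor, at 0 to 6.75 CPM, and Cd163, a haemoglobin scavenger receptor, at 0 to 6.93 CPM. Both were highest in injured meninges 1, and Fcgr3 shares sequence with Fcgr2b and Fcgr4, so its level is uncertain.

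**Figure D3:**
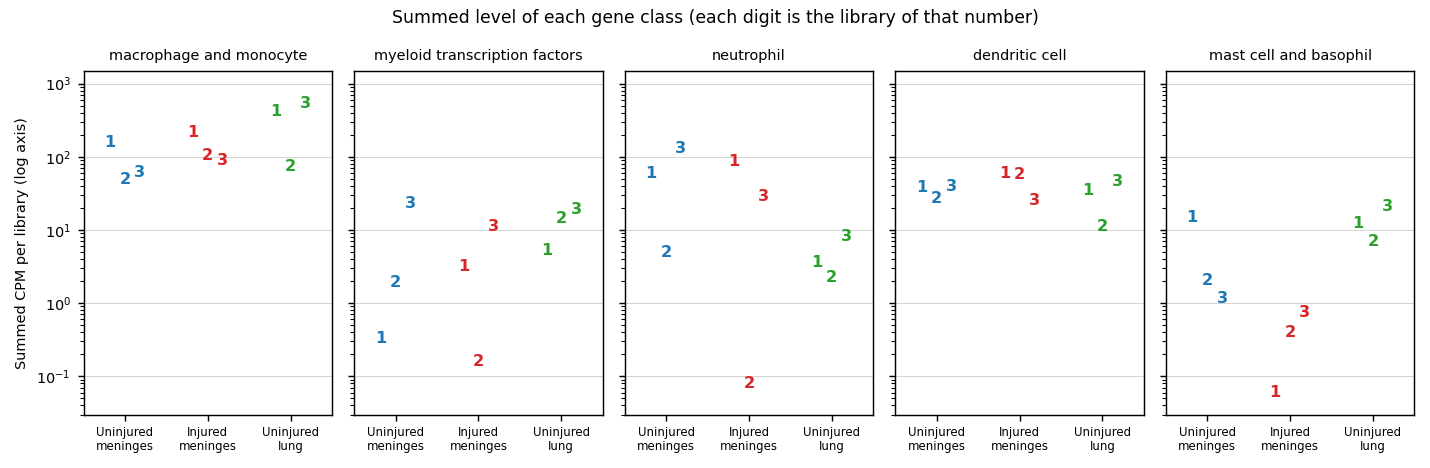
Summed CPM of each gene class in each library, on a log axis, with 1 panel per class and the digit giving the library number within its group. Neutrophil sums run from 0.080 CPM in injured meninges 2 to 130 CPM in uninjured meninges 3, mast cell and basophil sums are lowest in the 3 injured libraries, and dendritic cell sums stay between 11 and 58.4 CPM.

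The master regulator Spi1 was read in 5 of the 9 libraries. It had 0, 0 and 17.8 CPM in uninjured meninges, 0.239, 0 and 0 after injury and 2.21, 0.368 and 7.43 in lung. Macrophage genes were present in libraries without a Spi1 count, such as injured meninges 2 with 30.4 CPM of Cd68. The log2 fold change of Spi1 after injury was -6.04 ± 2.72 (edgeR adjusted p = 0.539), and without uninjured meninges 3 its sign turned (3.48). In that fit the remaining uninjured meningeal libraries were at 0, so the size of 3.48 depends on the prior count. Cebpb, a C/EBP factor also induced by inflammatory signals, had 0.272, 1.87 and 4.30 CPM in uninjured meninges, 2.93, 0.159 and 11.3 after injury and 2.83, 14.0 and 11.1 in lung, with overlapping groups. Tmem189 overlaps Cebpb on the other strand. Cebpa, needed to form granulocyte precursors, had 31 counts in all, none of them in injured meninges, and was not tested.

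Neutrophil genes varied widely between libraries of the same group. Their summed level was 59.7, 4.90 and 130 CPM in uninjured meninges, 86.0, 0.0795 and 28.2 after injury and 3.56, 2.21 and 8.20 in lung. Uninjured meninges 2 lay within the range of lung and injured meninges 2 below it, and the other 4 meningeal libraries were above all lung libraries. In injured meninges 2 the whole class amounted to 1 count, of Mpo, whereas its macrophage sum was 103 CPM.

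Genes of the successive granules had their highest levels in different libraries. This grouping was chosen with the values known, and it is a description. The azurophil genes Mpo and Elane summed to 4.08, 0.839 and 70.3 CPM in uninjured meninges, 3.70, 0.0795 and 0 after injury and 0 in each lung library. The specific granule genes Camp, Ngp and Ltf summed to 20.5, 0.774 and 0.134 CPM, then 54.4, 0 and 6.83, and again 0 in each lung library. Uninjured meninges 3 thus had the most azurophil and almost no specific granule reads, and injured meninges 1 the most specific granule reads. The other genes of the class, S100a8, S100a9, Retnlg, Cxcr2 and Csf3r, summed to 35.2, 3.29 and 59.8 CPM, then 27.8, 0 and 21.4, and 3.56, 2.21 and 8.20 in lung. They were not taken as 1 stage of maturation.

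**Figure D4:**
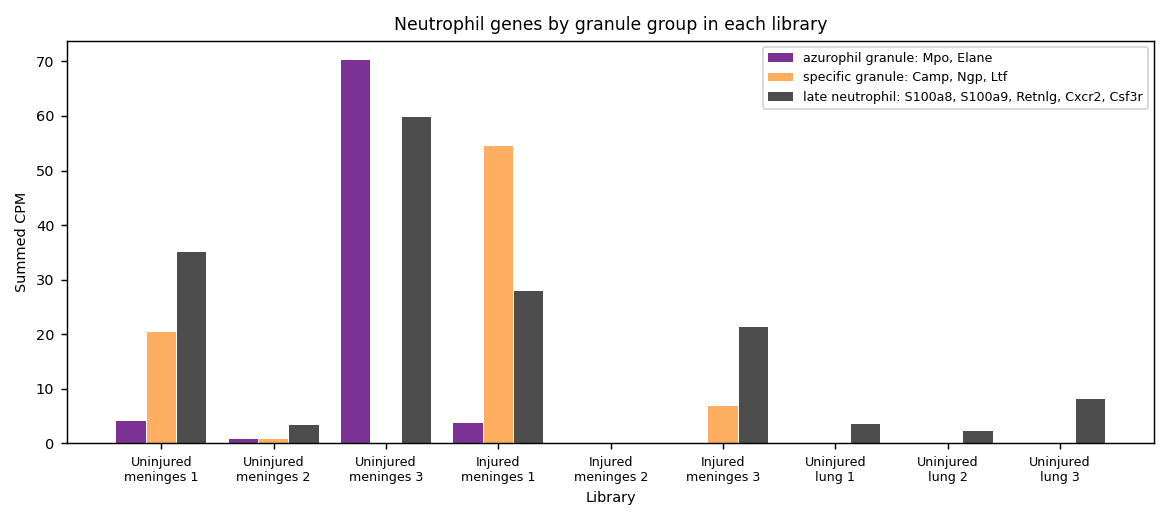
Summed CPM of azurophil granule, specific granule and other neutrophil genes (named late in the legend) in each of the 9 libraries, as bars from 0. Azurophil genes peak in uninjured meninges 3 (70.3 CPM) and specific granule genes in injured meninges 1 (54.4 CPM), and lung libraries hold neither.

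Mpo, which encodes myeloperoxidase, had 4.03, 0 and 38.1 CPM in uninjured meninges, 3.23, 0.0795 and 0 after injury and 0 in all lung libraries. Uninjured meninges were at least 70.5-fold higher than lung, and at least 10.1-fold without uninjured meninges 3 (edgeR adjusted p = 0.235). Elane, which encodes neutrophil elastase, had 0.0544, 0.839 and 32.2 CPM in uninjured meninges, 0.478, 0 and 0 after injury and 0 in lung. Of its 501 counts 479 were in uninjured meninges 3, and it did not pass the filter on low counts. Prtn3 and Ctsg, further azurophil protease genes chosen after their values were seen, differed from each other. Prtn3 was read in uninjured meninges 3 alone, at 14.7 CPM, and Ctsg had 1.47, 0 and 0.537 CPM in uninjured meninges, 0.717, 0 and 0 after injury and 0 in lung. Mpo, Elane, Csf3r and S100a9, whose promoters are printed above, were chosen for having most of their counts in the library highest in Spi1. That they share this library is therefore no separate result. The S100a9 window held no GAGGAA, and a link of these genes to Spi1 was not tested.

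Ngp, which encodes neutrophilic granule protein, had 4.95, 0 and 0 CPM in uninjured meninges, 35.7, 0 and 6.58 after injury and 0 in lung. Ltf, the gene of lactoferrin, had 15.4, 0 and 0 CPM in uninjured meninges, 18.7, 0 and 0.251 after injury and 0 in lung. Without uninjured meninges 1 both genes were at 0 in all remaining uninjured libraries, meningeal and pulmonary, so their folds between uninjured tissues rest on that library. Injured meninges were at least 70.8-fold above lung in Ngp, or at least 16.5-fold without injured meninges 1. Camp, the cathelicidin gene, had 16 counts in all, every one of them in uninjured meninges.

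S100a8 and S100a9 encode the chains of calprotectin, the main cytosolic protein of neutrophils. S100a8 had 12, 0 and 5.78 CPM in uninjured meninges, 17.4, 0 and 6.39 after injury and 0.799, 0 and 0.833 in lung. S100a9 had 12.5, 2.58 and 37.5 CPM, then 5.32, 0 and 4.64, then 0.922, 1.33 and 5.00 in the same order. Both were at 0 in injured meninges 2, but their order differed elsewhere: injured meninges 1 was the highest library of S100a8 and uninjured meninges 3 of S100a9. Against lung the log2 fold change was 3.42 ± 2.11 for S100a8 (edgeR adjusted p = 0.811) and 2.85 ± 1.49 for S100a9 (edgeR adjusted p = 0.696).

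The receptors of the class differed in where they were read. Csf3r, the receptor for granulocyte colony-stimulating factor, had 0.163, 0 and 16.4 CPM in uninjured meninges, 0.597, 0 and 5.64 after injury and 1.29, 0.884 and 1.86 in lung. Cxcr2, the chemokine receptor of mature neutrophils, had 3.16, 0 and 0.134 CPM, then 3.17, 0 and 4.70, then 0.553, 0 and 0.0641. Uninjured meninges 3 was thus highest in Csf3r and low in Cxcr2. Retnlg, a resistin-like gene of mature neutrophils, had 7.40, 0.710 and 0 CPM in uninjured meninges, 1.31, 0 and 0 after injury and 0, 0 and 0.448 in lung.

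Among dendritic cell genes, Zbtb46 and Xcr1 had reads in every library. Zbtb46, a transcription factor of conventional dendritic cells, had 28.2, 20.3 and 28.3 CPM in uninjured meninges, 51.7, 37.5 and 19.4 after injury and 25.1, 8.40 and 17.3 in lung. The groups overlapped, and the log2 fold change was 0.50 ± 0.57 after injury (edgeR adjusted p = 0.867) and 0.60 ± 0.57 for meninges against lung (edgeR adjusted p = 0.944). Xcr1, a chemokine receptor of cross-presenting dendritic cells, had 6.10, 6.39 and 10.9 CPM in uninjured meninges, 3.94, 18.1 and 6.08 after injury and 1.78, 0.368 and 6.73 in lung. Both were present in uninjured meninges 2 and 3 and in injured meninges 3, where Itgax and Flt3 were at 0.

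Itgax, which encodes CD11c, had no count in uninjured meninges 1, 2 or 3 and had 0.0597, 2.31 and 0 CPM in injured meninges and 6.88, 0.147 and 10.1 in lung. Lung was at least 30.7-fold higher than uninjured meninges, and at least 18.9-fold without lung 3. Itgax passed the filter on low counts without any uninjured meningeal library. The adjusted p was 0.283 with edgeR and 0.0120 with DESeq2, and it ran from 0.0120 to 0.659 over the alternatives. In lung 2 its level was under that of 3 counts. Flt3, the growth factor receptor of dendritic cell precursors, had 3.37, 0 and 0 CPM in uninjured meninges, 2.69, 0.0795 and 0 after injury and 0.430, 2.06 and 11.2 in lung. Its groups overlapped in both comparisons.

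Mast cell and basophil reads came mainly from Cpa3, which encodes mast cell carboxypeptidase. It had 10.9, 2.06 and 1.14 CPM in uninjured meninges, 0.0597, 0.318 and 0.752 after injury and 12.4, 6.78 and 20.3 in lung. All injured libraries lay below all uninjured ones of both tissues. The log2 fold change after injury was -3.61 ± 1.39 (edgeR adjusted p = 0.485), and -2.06 without uninjured meninges 1. DESeq2 gave -3.64 with an adjusted p of 0.0377, and the range over the alternatives was 0.0377 to 0.870. Mcpt8, a basophil protease gene, had 3.81 CPM in uninjured meninges 1 and 1 count elsewhere, and Fcer1a, the binding chain of the high-affinity IgE receptor, had 17 counts in all. Neither was tested.

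Kit, the stem cell factor receptor of mast cells that some ILC2s also carry, was the most abundant gene of a further list of mast cell and basophil genes. It had 209, 306 and 230 CPM in uninjured meninges, 381, 405 and 550 after injury and 618, 854 and 692 in lung. It was lower in meninges than in lung (log2 fold change -1.54 ± 0.23, SE, edgeR adjusted p = 0.00308), while the other 4 tested genes of that list were not called by edgeR. DESeq2 called Kit and Hdc. Hdc, which makes histamine and was chosen after its values were seen, had 0.707, 0 and 0 CPM in uninjured meninges, 11.7, 0 and 2.51 after injury and 28.8, 44.8 and 36.8 in lung. Some other genes of the class and the list had their lowest mean in lung, while Cpa3 and Fcer1a of the class had their highest mean there. Ms4a2, a chain of the IgE receptor chosen after its values were seen, had 6.91, 0 and 4.16 CPM in uninjured meninges, 1.25, 2.78 and 0 after injury and 0 in lung. Cd200r3, chosen in the same way, averaged 4.60 CPM in uninjured meninges, 10.4 after injury and 1.22 in lung, and Mcpt8 and Prss34 were at 0 in lung.

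Lung epithelial and endothelial genes were read in the lung libraries beside the myeloid ones. The surfactant gene Sftpa1 had 0.109, 0 and 0.0672 CPM in uninjured meninges, 0.119, 0 and 0 after injury and 266, 11.3 and 216 in lung (edgeR adjusted p = 0.000625). Sftpc, chosen after its values were seen, had 296, 2.28 and 322 CPM in lung. Cdh5, the endothelial cadherin gene, had 165, 41.2 and 107 CPM in lung. In each of these genes lung 1 and 3 were high and lung 2 lower, as for Lyz2 and Itgax. Not all listed genes had this order, as lung 2 was the highest lung library of Tyrobp, Ctss and Cebpb (6.41, 27.9 and 14.0 CPM). The 6 epithelial genes summed to 2112, 638 and 1276 CPM in lung and to 3.76 to 27.7 CPM in meninges, and the 4 endothelial genes to 445, 139 and 323 CPM and to 40.9 to 119 CPM. Chil3, a chitinase-like gene of alveolar macrophages, had 4.90, 0 and 0 CPM in uninjured meninges, 24.8, 0 and 25.2 after injury and 98.5, 12.7 and 75.3 in lung. The part of RNA from other lung cells in the levels of Lyz2, Cd14 and Itgax was not tested.

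**Figure D5:**
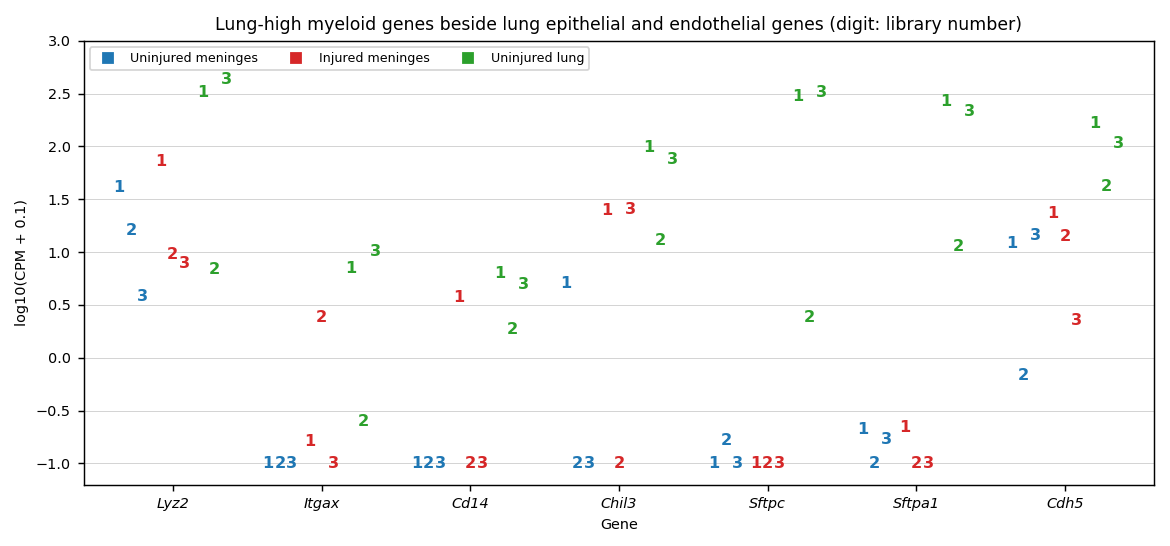
Levels of Lyz2, Itgax, Cd14 and Chil3 beside those of the epithelial genes Sftpc and Sftpa1 and the endothelial gene Cdh5, as log10(CPM + 0.1), with digits for the library number and colours for the group. In each gene shown lung 2 lies below lung 1 and lung 3, and Sftpc and Sftpa1 are at or near 0 in all 6 meningeal libraries. Listed genes that are not shown, such as Tyrobp, Ctss and Cebpb, had their highest lung level in lung 2.

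Further myeloid genes came from 11 lists with 76 tested genes. edgeR called none of the 76 after injury, with 11 at an unadjusted p under 0.05 (14.5%, against 8.94% of all tested genes), and DESeq2 called 3, Clec9a, Kit and Lamp1 (3.95%, against 2.86%). Against lung edgeR called 1, Kit (1.32%, against 0.635%), and 16 had an unadjusted p under 0.05 (21.1%, against 7.98%). DESeq2 called 7 (9.21%, against 3.53%), namely Plet1, Acod1, Cadm1, Kit, Hdc, Cebpd and Klf4. Of the neutrophil list 5 of 11 genes were tested, 3 of them above 0 after injury, among them Lcn2, which encodes lipocalin 2, with 4.30, 0 and 3.49 CPM in uninjured meninges and 43.4, 0.0795 and 20.3 in injured meninges. Lcn2 was at or near 0 in the same library of injured meninges as the other neutrophil genes. Against lung 3 of the 5 tested genes of that list were above 0 and 2 below, with a median of 1.67. The list summed to 19.6, 3.23 and 20.0 CPM in uninjured meninges and 9.95, 28.4 and 29.7 in lung, so these groups overlapped. Of the ITAM signalling list, 17 of 21 genes were tested, and Trem1 was at 0 in all meningeal libraries. Of the other 16, 8 were above and 8 below 0 after injury, with a median log2 fold change of -0.08, and the median of the 17 against lung was -0.69. Its most abundant gene, Lcp2, an adaptor also used by T cells and mast cells, had 442 to 571 CPM in all libraries.

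Of 12 tested myeloid factor and growth factor receptor genes 6 were above and 6 below 0 after injury. Runx1, shared by lymphoid and myeloid cells, led them at 183 to 331 CPM. Of 13 tested lysosomal and phagosomal genes 11 were above 0 after injury, with a median of 0.19, and 4 above 0 against lung, with a median of -0.50. Lamp1, a lysosomal membrane protein gene, was among the 2 below 0 after injury, with 125, 114 and 131 CPM before and 80.8, 51.3 and 55.3 CPM after injury (log2 fold change -0.98 ± 0.29, edgeR adjusted p = 0.339).

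Markers of macrophage subtypes were uneven as well. Of 7 monocyte genes Fn1, which encodes fibronectin, was the most abundant, with 51.8, 1.29 and 9.0 CPM in uninjured meninges, 15.1, 4.22 and 1.07 after injury and 56.0, 29.4 and 88.1 in lung. Of 7 border macrophage genes Lyve1 led, with 4.35, 0.0645 and 0 CPM, then 13.6, 0 and 0, then 67.8, 15.4 and 89.9 in the same order. Its lung level did not stand for that list. For meninges against lung 3 of its 5 tested genes were above 0 and 2, Lyve1 among them, below, with a median of 0.07. Gpr34, the most abundant of 5 microglial genes, had 21.3 to 46.2 CPM in all 9 libraries. Tmem119 was read at 1.14, 0 and 0 CPM in uninjured meninges, at 0 in each injured library and at 1.97, 0 and 1.22 CPM in lung. Clec9a, a marker of cross-presenting dendritic cells, had 1.09, 0 and 2.89 CPM in uninjured meninges, 0 after injury and 21.6, 3.53 and 14.9 in lung. The summed level of 6 T cell genes was 48.0, 9.74 and 42.6 CPM, then 12, 103 and 1.44, then 18.9, 10.2 and 30.8. Its highest value, in injured meninges 2, came mostly from Cd3g at 91.9 CPM, while Cd3d had 0.716 and Cd4 1.51 CPM there.

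Levels of different genes are compared per kb of exon, averaged over the 9 libraries. Lyz2 had 76.6 CPM per kb, S100a9 14.8, Ctss 14.5, Tyrobp 8.05, S100a8 6.92 and Cd68 5.5. The genes of the sort had 325 CPM per kb for Il1rl1, 90.3 for Ptprc and 49.5 for Thy1. Of the listed genes Lyz2 exceeded Thy1, and the other 34 lay below all 3. Its mean was 192 CPM per kb in lung, 15.4 in uninjured and 22.5 in injured meninges. The lowest listed gene was Cebpa with 0.0857 CPM per kb.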

How the data were processed

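The authors deposited raw counts of reads for each gene, and the submitters' processing notes name STAR, HTSeq, FastQC and build mm9. Versions and the strand setting are not given in the sources used here. The listed genes and the further gene lists were chosen with earlier results of these data known. Counts were filtered with filterByExpr by group (15117 genes kept), scaled with TMM factors (trimmed mean of M values) and fitted with edgeR 4.0.16 (R 4.3.3), a robust quasi-likelihood model with a mean per group over all 9 libraries. Benjamini-Hochberg adjustment ran over all genes tested, and genes with an adjusted p under 0.05 are called. DESeq2 1.42.0, other scalings and filters, a replicate block and leaving out each library were alternatives. The procedure was tested on simulated data, in which only genes with a higher mean level than most listed genes were changed. That simulation does not show how well scarce genes are recovered. No 2 libraries of a group agreed within sampling noise (lowest chi-square per degree of freedom 62.8). Exon lengths are from GENCODE M21, matched by Ensembl identifier, and promoters from RefSeq on GRCm38.p6, another build than that of the counts. Listed genes whose group mean reached 1 CPM are given by library, or by range where their results add little, and others by counts. Of each further list, the most abundant gene, the gene with the smallest p and called genes could be named. Summed levels were not tested.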

Additional observations from a re-analysis of the deposited data

How the results depend on the processing

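No listed gene was called by edgeR under any alternative in either comparison, and DESeq2 called 2 in each. Over all genes, 29 were called after injury, against 78 without the filter on low counts, 435 with DESeq2, 12 with only the 6 libraries compared and 18 to 27 with 1 library left out. For meninges against lung 96 were called, against 193, 536 and 226 under the same alternatives and 51 to 196 with 1 library left out. With the replicate number as a block 43 and 136 genes were called and none of the listed genes. Samples with the same number correlated at -0.039 to 0.10 in their deviations from the group means, so the numbers were not taken to pair them, and no block changed a call of a listed gene. Of 993 values of listed genes under the alternatives, 50 changed sign without being called, and 4 passed the threshold, all with DESeq2. The cause of these shifts was not tested. Depth limits the genes under about 1 CPM, where a count of 0 allows up to 0.239 CPM.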

Other observations

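Some genes were read in 1 library and in no other. Counting genes with at least 10 CPM in 1 library and 0 in the other 8 gave 5, 1 and 8 in uninjured meninges, 2, 6 and 3 in injured meninges and 3, 4 and 4 in lung. Uninjured meninges 3, which held most of the Mpo, Elane and Spi1 reads and the Prtn3 reads, had the most such genes. Fitted log2 fold changes of scarce genes moved widely when 1 library was left out. After injury those of Ngp ran from 0.98 without injured meninges 1 to 10.74 without uninjured meninges 1, and those of Spi1 from -9.49 without injured meninges 1 to 3.48 without uninjured meninges 3. In the fits that gave 10.74, -9.49 and 3.48 the group that lost a library was left at 0. The size of these values therefore depends on the prior count.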
